A study of Avicennia schaueriana with 18 samples.

Results

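As_44068 and As_20592 are the 2 transcripts of *Avicennia schaueriana*, a mangrove tree, that a supplementary annotation of the study matches to the *Arabidopsis thaliana* aquaporin PIP1;4. They are 2 of the 49490 transcripts in the deposited table of counts, and both were selected on their counts in the leaf libraries, since the study lists them among the transcripts that differed between sites in leaves. The leaf difference between sites is therefore given as a description, with no test. The libraries come from 6 adult flowering trees sampled in the field, each for its leaves, its stems and its flowers, with 3 trees of an equatorial site (Eq4, Eq5 and Eq6) and 3 of a subtropical site (St1, St2 and St4) and 1 library for each tree and tissue. No treatment was applied to any tree, so that a site stands for its climate, its season, its soil and its population at once. The trees of a site are the replicates, and p-values of the site tests rest on the spread between the 3 trees of each site. Tissue tests rest on the spread between trees within each group of site and tissue, in 1 fit without pairing by tree. Tests of the ratio of both copies between tissues use differences within the 6 trees.

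Aquaporins are membrane channels that let water, and in some cases small solutes such as carbon dioxide or hydrogen peroxide, pass along a gradient. Plants have several families of them, and the plasma membrane intrinsic proteins (PIPs) sit in the outer membrane of the cell, in roots, leaf veins, xylem parenchyma and guard cells among others. PIP1 proteins often reach that membrane only in tetramers with PIP2 proteins, and water flow through PIPs is also set after transcription, by phosphorylation, pH and calcium, which counts of RNA do not show.

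The only sequences of these transcripts used here are the primers that the study designed to measure As_44068 by quantitative PCR, shown as the study's assay of this copy. The paper reports that quantitative PCR on the sequenced leaf samples bore out the site difference of all its targets. That outcome was not re-examined here. Whether these primers also match As_20592 was not tested. They are written from 5′ to 3′ in the primers' own direction, with the last 5 bases at the 3′ end, from which the polymerase extends, in capitals.
As_44068 left primer: agtgccttggtgccatTTGTG
As_44068 right primer: acaaaggtgcccacgatTTCAG
The left primer has 21 bases, 11 of them G or C, and the right primer has 22 bases, of which 11 are G or C. No primer of As_20592 was used here, and the transcripts themselves, their lengths and their places in a genome were not analysed here. A ratio of counts of both copies therefore compares libraries with each other and not molecules of one copy with molecules of the other. Counts hold reads that mapped to a single transcript, so stretches that both copies share may add to neither.

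Libraries held between 5055480 and 15802680 counts. One flower library goes against its label. Of 65 transcripts counted in all subtropical and in no equatorial leaf and stem libraries, the flower library labelled Eq6 counted 53, against 3 in each of the other equatorial flower libraries and 48 to 59 in the subtropical ones. Of 36 transcripts with the opposite pattern it counted 6, against 31 in each of Eq4 and Eq5. The tests of both copies in flowers are also given without it. The stem library of Eq6 also stands apart, in As_20592 and in transcripts of secondary cell wall synthesis, as described below. In leaf libraries the summed level of 6 photosynthesis markers (transcripts matched to PSAO, PSBO1, PSB27, ATPD, PQL2 and PQL3) was 204 to 889 CPM (counts scaled to a common library size), against 88.1 to 278 in stems and 18.8 to 108 in flowers.

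As_44068 had more counts than As_20592 in each of the 18 libraries. Levels here are CPM, for which library sizes were scaled by edgeR's TMM method. In leaves As_44068 stood at 572 CPM in Eq4, 1031 in Eq5 and 333 in Eq6, against 204 for St1, 244 for St2 and 169.7 for St4. Every equatorial leaf library was above every subtropical one, with Eq5 well above the rest. In stems it stood at 1243, 2376 and 983 CPM in Eq4, Eq5 and Eq6, and at 833, 988 and 958 in St1, St2 and St4. Here the sites overlapped, since Eq6 was just below St2. In flowers the levels were 1764, 3098 and 1743 CPM in the libraries labelled Eq4, Eq5 and Eq6, and 949.9, 915 and 1424 in St1, St2 and St4, without overlap between sites. Eq5 was the highest library of each tissue.

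As_20592 had fewer counts and was spread far more widely. In leaves it stood at 7.30 CPM in Eq4, 2.20 in Eq5 and 11.0 in Eq6, against 1.49 for St1, 0.968 for St2 and 0.588 for St4. The subtropical leaf values rest on 13, 10 and 5 counts, and the lowest equatorial one on 16, so that they are imprecise, although the sites did not overlap. In stems it stood at 10.0, 27.7 and 236 CPM in Eq4, Eq5 and Eq6, and at 42.0, 10.7 and 26.2 in St1, St2 and St4. The Eq6 stem library, with 4150 counts, was thus far above the 5 others, which overlapped freely between sites. In flowers it stood at 19.1, 9.54 and 11.1 CPM in the libraries labelled Eq4, Eq5 and Eq6, and at 8.75, 10.7 and 6.83 in St1, St2 and St4. Flower libraries were the most even, each with 77 to 94 counts. Over all 18 libraries the highest level of As_20592 was 401 times the lowest, and that of As_44068 was 18.3 times the lowest.

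**Figure D1:**
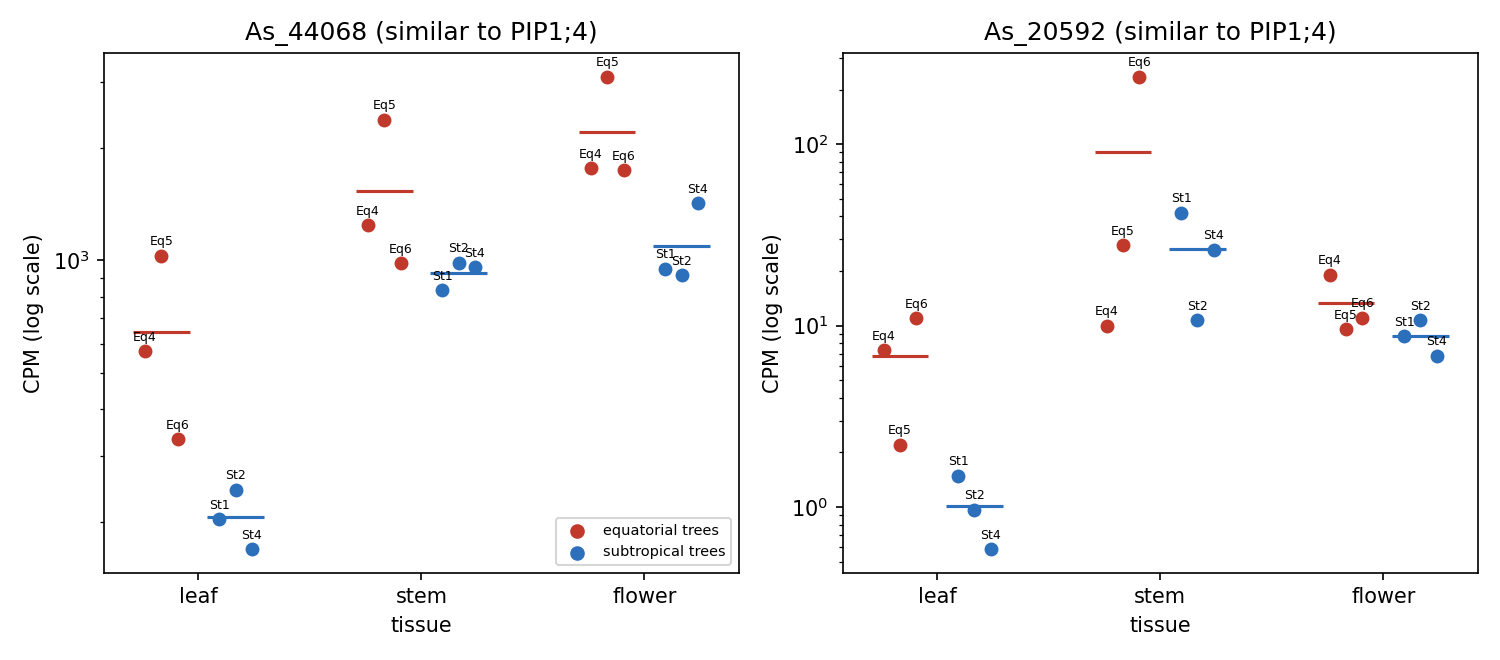
Level of As_44068 (left) and As_20592 (right) in CPM on a log scale, by tissue, with 1 point per library, equatorial trees in red, subtropical trees in blue and a line at the mean of 3 trees. As_44068 lies lowest in leaves, with Eq5 the highest library of each tissue, and the As_20592 panel is topped by the stem library of Eq6 at 236 CPM.

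By mean level over the 3 trees, As_44068 was ordered as subtropical leaves (206 ± 37.3 CPM, SD, n = 3), equatorial leaves (645 ± 355), subtropical stems (926 ± 82.0), subtropical flowers (1096 ± 285), equatorial stems (1534 ± 740.5) and equatorial flowers (2201 ± 777). Apart from the 2 leaf groups, each group of this order overlapped its neighbour. For As_20592 the order was subtropical leaves (1.01 ± 0.451 CPM, SD, n = 3), equatorial leaves (6.84 ± 4.43), subtropical flowers (8.77 ± 1.95), equatorial flowers (13.2 ± 5.15), subtropical stems (26.3 ± 15.6) and equatorial stems (91.1 ± 126). Again only the leaf groups, which the choice of the transcripts set apart, did not overlap. Leaves thus held the least of both copies, while the top tissue was the flower for As_44068 and the stem for As_20592.

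Tissues were compared in 1 fit of edgeR's quasi-likelihood test over the 18 libraries, with each contrast averaged over both sites and p-values adjusted by the Benjamini-Hochberg method over 37761 transcripts, at a threshold of 0.05. As_44068 was higher in stems than in leaves by 1.71 on the log2 scale (SE 0.30, adjusted p = 0.000348), in 6 of 6 trees and by 2.17 to 5.65 times within a tree. As_20592 was higher in stems than in leaves by 4.20 (SE 0.68, adjusted p = 0.000189), again in 6 of 6 trees, and by 1.37 to 44.6 times. Among all transcripts tested, 18.3% were called higher in stems than in leaves, with a median log2 fold change of 0.04. Without the stem library of Eq6 the log2 fold change of As_20592 was 3.07 and was still called. The leaf libraries by which both copies were chosen enter every contrast with leaves. By site, As_44068 was at 1.25 (SE 0.42) in equatorial and 2.17 (SE 0.43) in subtropical trees. As_20592 was at 3.72 (SE 0.91) and 4.68 (SE 1.02).

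Flowers also held more of both copies than leaves did. As_44068 was higher in flowers by 2.09 on the log2 scale (SE 0.30, adjusted p = 4.17e-05 by the quasi-likelihood test), in 6 of 6 trees, and by 3.01 to 8.39 times within a tree. As_20592 was higher in flowers by 2.01 (SE 0.66, adjusted p = 0.0195), also in 6 of 6 trees, although in Eq6 the flower level was 1.01 times the leaf level. Within-tree counts, here and between flowers and stems, take the flower library labelled Eq6 as part of tree Eq6. That library goes against its label. Of all transcripts tested, 25.5% were called higher in flowers than in leaves. Without the flower library labelled Eq6 the log2 fold changes were 2.19 and 2.10, and both calls held. The call of As_20592 was lost without tree St2 (adjusted p = 0.0741) and without tree St4 (adjusted p = 0.0734).

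Between flowers and stems As_20592 was called and As_44068 was not. The contrast between the copies, tested as their ratio further on, did not pass. As_44068 had a log2 fold change of 0.38 (flower minus stem, SE 0.29, adjusted p = 0.328) and was not called. It was higher in the flower in 5 of 6 trees. As_20592 was lower in flowers by a log2 fold change of -2.19 (SE 0.61, adjusted p = 0.00997), in 5 of 6 trees, while 18.2% of all transcripts were called lower in flowers. Without the flower library labelled Eq6 the log2 fold changes were 0.48 for As_44068 (adjusted p = 0.235) and -2.09 for As_20592 (adjusted p = 0.0267). The call of As_20592 rested on a few libraries. Without the stem library of Eq6, a fit added after the data were seen, the log2 fold change was -1.02 (adjusted p = 0.0763). Without all libraries of Eq6 it was -0.97 (adjusted p = 0.105), without St1 it was -1.93 (adjusted p = 0.0663), and without St4 it was -2.07 (adjusted p = 0.0598). In Eq4 As_20592 was 1.91 times as high in the flower as in the stem, and in St2 the levels were 10.7 CPM in both.

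**Figure D2:**
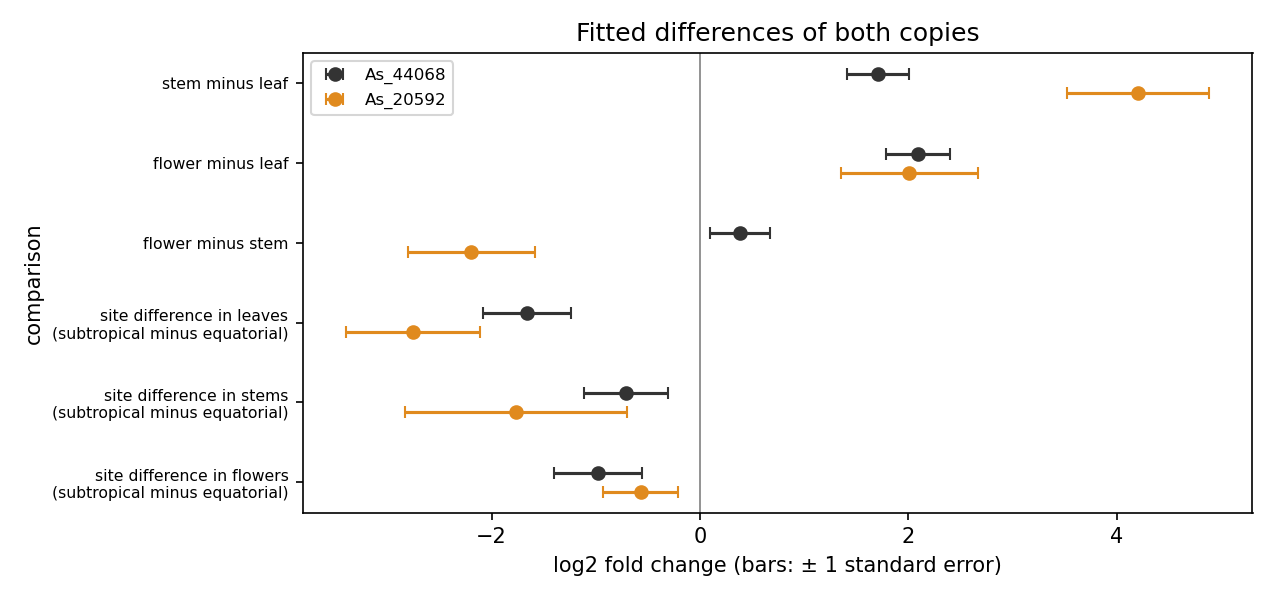
Log2 fold changes of As_44068 (black) and As_20592 (orange) in the tissue contrasts and in the site contrasts within each tissue, with bars of 1 standard error. Both copies lie above 0 against leaves, and in flower minus stem As_44068 is at 0.38 and As_20592 at -2.19.

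The site contrast asks whether trees of the hot, dry-air site and of the cool, humid-air site differ in these transcripts. In leaves, from which both were chosen, the fitted log2 fold change of As_44068 (subtropical minus equatorial) was -1.66 (SE 0.42) and that of As_20592 was -2.75 (SE 0.64). As a ratio of mean CPM, equatorial leaves held 3.13 times as much As_44068 and 6.75 times as much As_20592 as subtropical leaves. Each library of one site was above each of the other in both copies, which the choice of the transcripts favours. In 9.26% of the transcripts tested in leaves the equatorial libraries were all above the subtropical ones. The lowest equatorial and highest subtropical leaf values were 333 and 244 CPM for As_44068 and 2.20 and 1.49 CPM for As_20592. The photosynthesis markers lay the other way, with a summed level of 204 to 319 CPM in equatorial and 630 to 889 in subtropical leaves. The study lists these markers too as different between sites in leaves, so this direction is no independent evidence, and their part in the leaf values was not tested.

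Stems and flowers were not used to choose the transcripts. In stems the log2 fold change of As_44068 was -0.71 (SE 0.41, adjusted p = 0.657 by edgeR's quasi-likelihood test over 34269 transcripts) and that of As_20592 was -1.76 (SE 1.07, adjusted p = 0.672). Every equatorial stem library was above every subtropical one in 8.07% of these transcripts, but in neither copy. Neither was called, where 0.228% of the transcripts tested in stems were called in either direction. The stem value of As_20592 was set by 1 library, since without tree Eq6 it was 0.47, with the higher level at the subtropical site. That of As_44068 was -0.23 without tree Eq5. In flowers the log2 fold change of As_44068 was -0.98 (SE 0.42, unadjusted p = 0.0480, adjusted p = 0.866 over 29232 transcripts) and that of As_20592 was -0.57 (SE 0.36, adjusted p = 0.871).

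Neither flower difference passed. No transcript was called in flowers by this test (0.00% of those tested), and 1654 (5.66%) had an unadjusted p under 0.05, a share near 0.05. In flowers edgeR's exact test called 6 of 29232 transcripts and DESeq2 77 of 30425. In 4.81% of the transcripts tested in flowers every equatorial library was above every subtropical one, as in As_44068. Leaving out the Eq6 flower library raised the number of calls in flowers to 573 of 32029, and neither copy was among them. The log2 fold changes were then -1.13 for As_44068 (adjusted p = 0.256) and -0.69 for As_20592 (adjusted p = 0.463). By DESeq2 on all 6 libraries As_44068 had an adjusted p of 0.229. The site difference in flowers minus that in stems was -0.28 for As_44068 (SE 0.58) and 1.21 for As_20592 (SE 1.18), with an adjusted p of 0.99997 for each by the quasi-likelihood test, where 0.00530% of transcripts were called. Without the flower library labelled Eq6 these were -0.40 and 1.08, and without tree Eq6 that of As_20592 was -1.17.

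The make-up of the pair was then followed from library to library. The share of As_20592 among the counts of both copies was 1.26% in the Eq4 leaf (95% Wilson interval 1.03% to 1.55%), 0.213% in Eq5 (0.131% to 0.346%) and 3.20% in Eq6 (2.66% to 3.85%). In subtropical leaves it was 0.723% in St1 (0.423% to 1.23%), 0.395% in St2 (0.215% to 0.725%) and 0.345% in St4 (0.148% to 0.806%). The equatorial leaves thus held both the lowest and the highest leaf share, with intervals that do not meet, and the subtropical leaves lay between. Intervals cover counting error only.

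In stems the share was 0.799%, 1.15% and 19.3% in Eq4, Eq5 and Eq6, and 4.80%, 1.08% and 2.66% in St1, St2 and St4. In the Eq6 stem As_44068 was 4.17 times as frequent as As_20592 in counts, against 19.8 to 124 times in the other stems. In flowers the share was 1.07%, 0.307% and 0.631% in the libraries labelled Eq4, Eq5 and Eq6, and 0.913%, 1.16% and 0.477% in St1, St2 and St4. The sites overlapped in all 3 tissues.

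**Figure D3:**
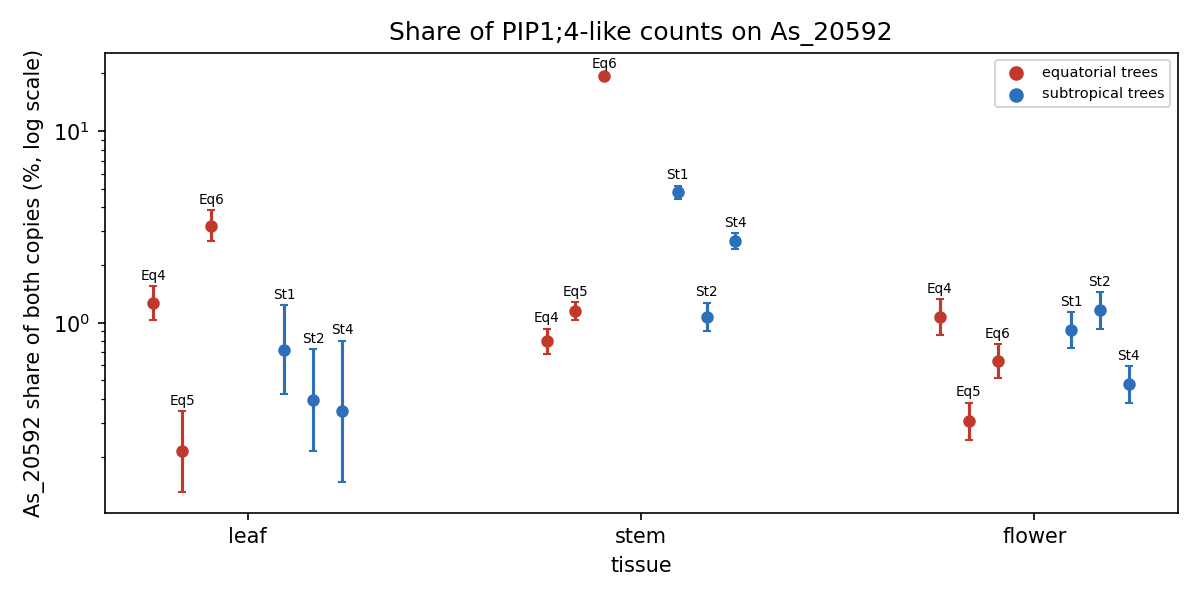
Share of As_20592 among the counts of both copies, in percent on a log scale, for each library by tissue, with bars for the 95% Wilson interval, equatorial trees in red and subtropical trees in blue. Sites overlap in each tissue, and the Eq6 stem, at 19.3%, is far above the other libraries.

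The log2 ratio of As_44068 to As_20592 (0.5 added to each count) was lower in the stem than in the leaf in 5 of 6 trees, by a mean difference of -1.93 ± 1.39 (SD, n = 6, exact two-sided sign-flip test over trees, p = 0.0625, adjusted over 3 pairs of tissues 0.188). Eq4 was the exception. Flower minus stem gave a mean of 1.92 ± 2.06 with 4 of 6 trees above 0 (exact p = 0.125, adjusted 0.188). Without the flower library labelled Eq6, and so without that tree's pair, this mean was 1.26 (exact p = 0.25). Flower minus leaf gave -0.0031 ± 1.30 with 2 of 6 above 0 (exact p = 1), or -0.48 without that library. With 6 trees the smallest p of this test is 0.0312, and 1 pair of tissues alone at that p cannot pass after adjustment over 3 pairs. With 5 trees, as without the library labelled Eq6, the smallest p is 0.0625, so no pair could pass. None of the pairs of tissues passed, so a difference in the ratio between tissues was not shown. Between sites the mean ratio (subtropical minus equatorial) differed by 0.19 in stems (exact permutation p = 0.9, n = 3 per site) and by -0.43 in flowers (exact permutation p = 0.6, n = 3 per site), where 3 against 3 cannot go below 0.1. Without the library labelled Eq6 the flower difference was -0.48.

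The transcripts most like each copy were found by Pearson's correlation of log2 CPM over the 18 libraries, a description in which libraries of one tree and of one tissue are not independent. Of 37760 other transcripts, the 3 most like As_20592 were As_18275 (r = 0.987), matched to GXM1, which methylates glucuronic acid on xylan, As_17083 (r = 0.983), matched to CESA4, a cellulose synthase subunit of the secondary wall, and As_22978 (r = 0.980), matched to FLA11, a fasciclin-like arabinogalactan protein of stems. All these roles are known from *A. thaliana*. Without the stem library of Eq6 the correlations were 0.981, 0.978 and 0.974 over 17 libraries, and without its flower library 0.988, 0.985 and 0.984.

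These 3 belong to a list of 10 secondary wall transcripts, which also holds CESA7 and CESA8 (the partner subunits of CESA4), the laccase LAC4 of lignin formation, the xylan and pectin synthesis gene GAUT12, COBL4, TBL3 and the transcription factor NST1. The study lists all 10 as different between sites in leaves, as it does both copies, so their direction there is no independent evidence. Leaf libraries also entered the correlations and ranks of these transcripts, which are therefore no independent evidence either. All 10 had a correlation with As_20592 of 0.926 to 0.987, at ranks 1 to 57 among the 37760 transcripts. Without the stem library of Eq6 the range was 0.886 to 0.981. With As_44068 the same 10 had correlations of 0.518 to 0.639, at ranks 2915 to 5851. The copies correlated with each other at 0.583, and at 0.691 without the stem library of Eq6.

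The summed level of the 10 secondary wall transcripts had a similar order of libraries to As_20592. In leaves it was 93.8, 18.7 and 124 CPM in Eq4, Eq5 and Eq6, and 11.1, 8.90 and 7.99 in St1, St2 and St4. Eq5 was the lowest equatorial leaf in the list as in As_20592, whereas it was the highest in As_44068. In stems the sum was 179, 376 and 3317 CPM in Eq4, Eq5 and Eq6, and 704, 255 and 463 in St1, St2 and St4. In flowers it was 275, 136 and 80.0 CPM in the libraries labelled Eq4, Eq5 and Eq6, and 112, 197 and 76.6 in St1, St2 and St4. GAUT12 and NST1 were at 0 counts in all 3 subtropical leaf libraries, GXM1 in St2 and St4, and TBL3 in St2, while each of the 10 was counted in all other libraries.

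Per 100 CPM of the secondary wall list, leaf As_20592 stood at 7.78 CPM in Eq4, 11.8 in Eq5 and 8.91 in Eq6, against 13.4, 10.9 and 7.35 for St1, St2 and St4. On this scale the sites overlapped in leaves. The study lists As_20592 and the whole secondary wall list as different between sites in leaves, and both stood higher in equatorial leaves. That choice favours such an overlap, which is therefore no independent evidence. In stems the range was 4.22 to 7.36 and in flowers 5.45 to 13.8. Over all 18 libraries this measure spanned 3.28 times, whereas As_20592 itself spanned 401 times and the summed list 415 times. As_44068 per CPM of the list spanned 186 times. The leaf libraries enter all these spans, so the spans are no independent evidence either. The part of the secondary wall transcripts in the differences of As_20592 between tissues and sites was not tested. In bulk tissue, fewer cells of a type and less RNA per cell cannot be told apart.

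**Figure D4:**
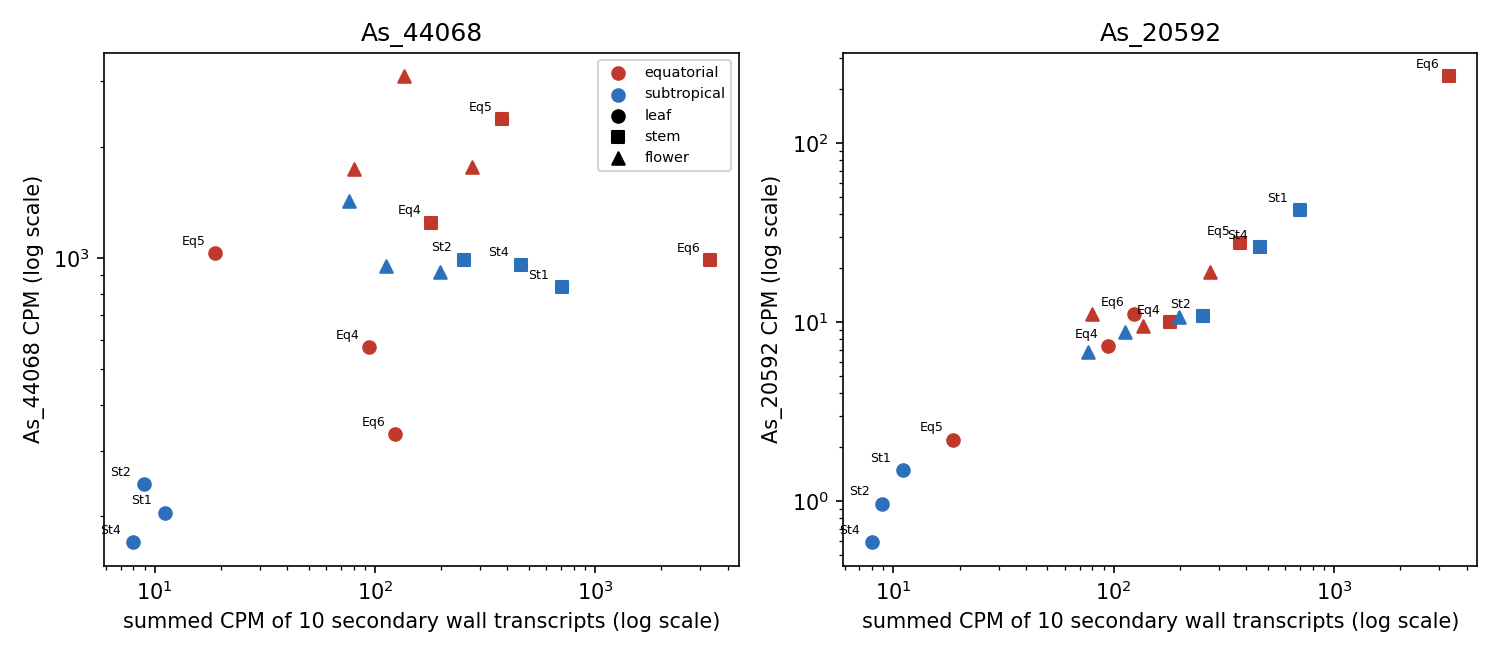
Level of As_44068 (left) and As_20592 (right) against the summed level of 10 secondary wall transcripts, both in CPM on log scales, with 1 point per library (circles leaves, squares stems, triangles flowers, red equatorial, blue subtropical, trees named for leaves and stems). The As_20592 points lie along a line from the subtropical leaves to the Eq6 stem, and the As_44068 points are scattered.

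In the tests, 10 of the 10 secondary wall transcripts were called higher in stems than in leaves (median log2 fold change 4.90, range 4.00 to 6.73), where As_20592 had 4.20 and 18.3% of all transcripts were called. From stems to flowers 9 of 10 were called lower, beside 18.2% of all transcripts, with a median of -2.40 beside -2.19 for As_20592 and -0.09 for all transcripts tested. Without the stem library of Eq6, 10 of 10 were called between stems and leaves and 5 of 10 between flowers and stems. Of all 40873 transcripts tested there, 5927 were called higher in stems than in leaves and 5839 lower in flowers than in stems. TBL3, the exception in all libraries, had -1.005 (adjusted p = 0.226 by the quasi-likelihood test). Between sites 0 of 10 were called in stems and 0 of 10 in flowers by the quasi-likelihood test, with medians of -1.40 and -0.17, where 0.228% and 0.00% of all transcripts were called. At an unadjusted p under 0.05 these were 0 in stems and 1 in flowers, and edgeR's exact test and DESeq2 called 0 in either tissue.

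As_44068 had other partners. The 3 transcripts most like it, As_21777 (r = 0.950), As_26249 (r = 0.918) and As_17397 (r = 0.917), carry no gene name in the tables used here. As_21777 was at 2.97 to 6.75 CPM in equatorial and 1.88 to 3.19 in subtropical leaves, 6.93 to 18.6 and 7.35 to 11.6 in stems, and 11.3 to 16.5 and 9.29 to 10.9 in flowers. Among 125 annotated transcripts the most like were As_33140 (r = 0.885), matched to MYB12, a regulator of flavonol synthesis, As_3457 (r = 0.851), matched to TT7, a flavonoid hydroxylase, and As_17427 (r = 0.825), matched to CSLG1, a cellulose synthase-like protein. They ranked 26, 104 and 241 among all transcripts. In subtropical leaves MYB12 stood at 0.229 to 0.353 CPM, TT7 at 0 to 0.194 and CSLG1 at 0, all near the floor. The annotated transcripts come from the study's supplementary lists, as As_44068 does, and leaf libraries entered the correlation. This likeness is therefore no independent evidence. The 6 photosynthesis markers had correlations of -0.892 to -0.719 with As_44068 and of -0.526 to -0.376 with As_20592. The study lists these markers and both copies as different between sites in leaves, in opposite directions. Leaf libraries entered these correlations, so their sign is no independent evidence. From leaves to stems 4 of these 6 markers were called lower, beside 14.8% of all transcripts, and from leaves to flowers 5 of 6, beside 21.1%.

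The study's water and ion transport list has 3 other transcripts. It holds ERD4 (As_2569) and AT3G21620 (As_27360), matched to the early-responsive to dehydration family, and SLAH3 (As_30027), an anion channel that acts in stomatal closure in *A. thaliana*. All 3 were called higher in stems than in leaves, with log2 fold changes of 5.43, 2.52 and 1.90, as were 18.3% of all transcripts. In flower minus leaf ERD4 (2.08) and SLAH3 (3.57) were called higher, beside 25.5% of all transcripts. AT3G21620 had -0.52 (SE 1.43, adjusted p = 0.798 by the quasi-likelihood test), but it had at most 5 counts in each flower library. ERD4 was close to As_20592 in pattern (r = 0.937, rank 43), and SLAH3 to As_44068 (r = 0.820, rank 273). From stems to flowers ERD4 and AT3G21620 were called lower, with log2 fold changes of -3.34 and -3.04, beside 18.2% of all transcripts, and SLAH3 was called higher with 1.67, beside 19.1%.

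The water deficit and osmoregulation lists of the study were mixed. Of the 4 water deficit transcripts 1, HB-7 (As_17082), a homeodomain factor induced by abscisic acid, was called higher in stems than in leaves (log2 fold change 2.83), a share near the 18.3% of all transcripts. NCED3 (As_19228), which makes the precursor of abscisic acid, had -0.03 (SE 0.51, adjusted p = 0.989). Of the 4 transcripts of the osmoregulation list, which concern raffinose and its relatives, GolS1 (As_13564), RFS4 (As_11264) and SIP1 (As_13250) were called higher in stems, with log2 fold changes of 4.41, 7.09 and 6.55, beside the same 18.3%. The fourth, SIP2 (As_44184), had -0.07. RAP2.4 (As_15910) is a transcription factor that regulates aquaporins in *A. thaliana* and that the study's scan for selection lists. It was called higher in stems than in leaves (2.07, beside 18.3% of all transcripts) and lower in flowers than in stems (-1.53, beside 18.2%). Its correlations were 0.530 with As_44068 and 0.623 with As_20592. ZFN1 (As_21267), also from that scan, had correlations of 0.00 and -0.51. The RAP2.4 transcript of the water deficit list, As_11218, was called in neither contrast. It had 0.06 in stem minus leaf (adjusted p = 0.918) and 0.04 in flower minus stem (adjusted p = 0.941 by the quasi-likelihood test). Its correlations were 0.299 with As_44068 and 0.026 with As_20592. Of these 13 transcripts the quasi-likelihood test called 0 between sites in stems (2 had an unadjusted p under 0.05) and 0 in flowers (1 had), where AT3G21620 was not tested. The exact test and DESeq2 called AT3G21620 in stems, at a log2 fold change of -2.34 in the quasi-likelihood fit, and none of the 13 in flowers.

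Vapour pressure deficit (VPD), the drying power of the air, was computed from the air temperature and relative humidity listed for each tree's sampling. The paper credits both to the Brazilian National Institute of Meteorology, so they need not be readings at the tree. Small gaps in VPD between trees of a site are therefore uncertain. VPD was 0.294 kPa at St2, 0.352 at St1 and 0.445 at St4, and 1.88 kPa at Eq5, 1.98 at Eq4 and 2.26 at Eq6. The subtropical trees were sampled at 18.3 to 20.9 °C and 82 to 86% humidity and the equatorial ones at 28.3 to 30.1 °C and 47 to 51%. The trees thus form 1 cluster per site, no correlation with VPD is given, and site, temperature, humidity and VPD cannot be told apart.

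Within a site the copies were ordered differently along VPD. In equatorial leaves As_44068 stood at 1031, 572 and 333 CPM in Eq5, Eq4 and Eq6, while As_20592 stood at 2.20, 7.30 and 11.0 CPM. The tree with the highest VPD of all, Eq6, had the least As_44068 and the most As_20592 of the equatorial leaves. As_44068 had the same order of equatorial trees in stems, so that in 0 of 3 pairs of trees, in leaves as in stems, was the level higher at the higher VPD. Equatorial flowers are left out of these counts, since the library labelled Eq6 goes against its label. Among subtropical trees this held for 0 of 3 pairs in leaves, 1 of 3 in stems and 3 of 3 in flowers. For As_20592 such pairs were 3 and 2 of 3 in equatorial leaves and stems, and 1, 2 and 0 of 3 in subtropical leaves, stems and flowers. The secondary wall list had the same numbers of pairs in these groups. In equatorial flowers, left out above, As_20592 had 2 of 3 pairs and the list 1 of 3. With 3 trees a site these orders are not tested, and irradiance and hour of sampling differed between the trees as well.

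**Figure D5:**
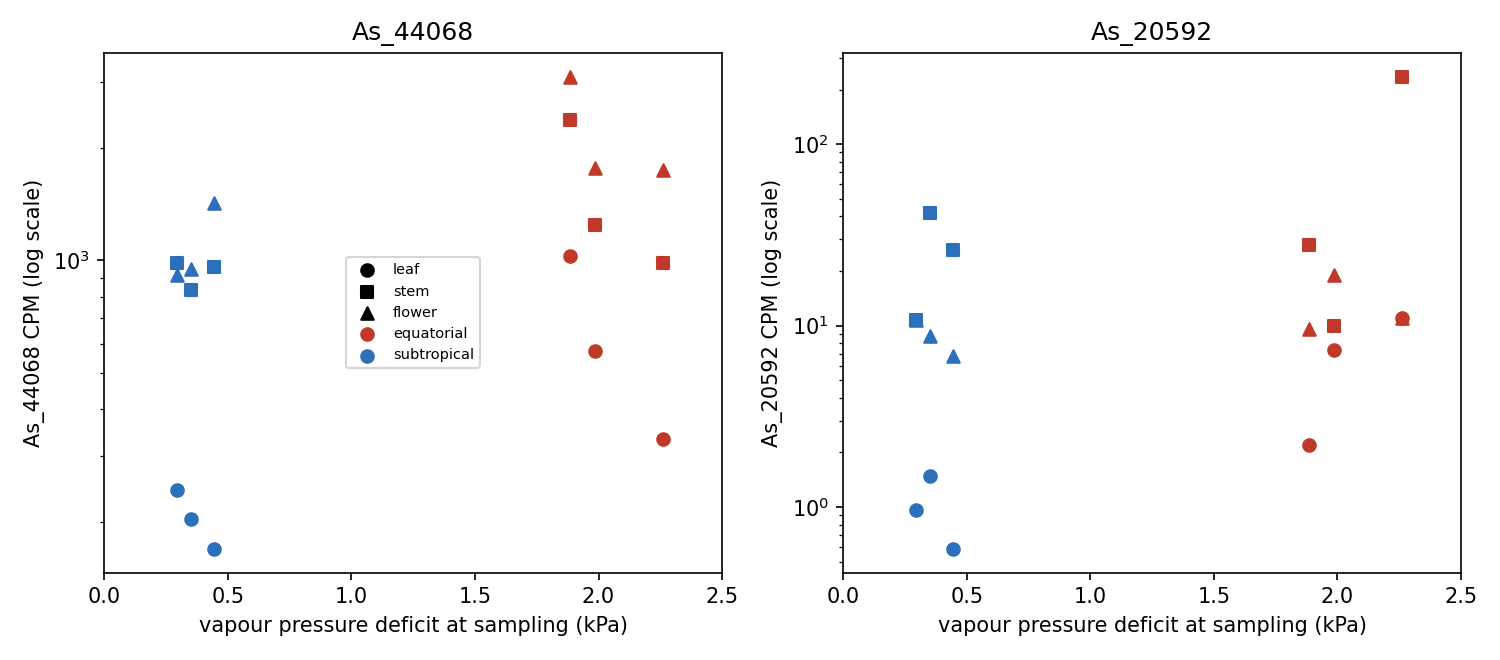
Level of As_44068 (left) and As_20592 (right) in CPM on a log scale against the VPD at sampling in kPa, with 1 point per library (circles leaves, squares stems, triangles flowers, red equatorial, blue subtropical). Trees form 2 clusters, at 0.294 to 0.445 kPa and at 1.88 to 2.26 kPa, and in equatorial leaves and stems As_44068 lies lower where VPD is higher.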

How the data were processed

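The authors mapped quality-filtered reads to their assembled transcriptome with Bowtie (version 0.12.2 in the submitters' notes) and deposited raw counts of uniquely mapped reads per transcript, without normalization. All 18 files of single samples hold the same values as the joint table. Sites were compared within a tissue, and tissues over all 18 libraries, by edgeR 4.0.16 (limma 3.58.1, R 4.3.3) with TMM scaling, filterByExpr, the quasi-likelihood test and Benjamini-Hochberg adjustment at 0.05. Standard errors were derived from the F statistic (fold change over its root). A prior count of 2 entered log2 CPM. The exact test of edgeR, which the study used, was run here as an alternative for sites, beside DESeq2 1.42.0, other scalings, no filter, 1 fit over 18 libraries, a tree block and leaving out each tree. Ratios were tested by full enumeration of sign flips or of splits of the trees, Wilson intervals are from scipy, and the scripts were tested on simulated data.

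By the labels, same-named libraries come from 1 tree. Over 37761 transcripts their deviations from group means correlated at -0.02 to 0.40 (stem and leaf), 0.06 to 0.31 (flower and leaf) and 0.02 to 0.27 (flower and stem). Named transcripts are both copies, the study's transport, water deficit, osmoregulation and selection lists, 4 housekeeping transcripts (UBC11, UBP12, UBQ6 and EIF4A1) of its primer list, marker lists, and the 3 most correlated with each copy among all and among annotated transcripts. Members and lists were chosen with earlier results of these data known.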

Additional observations from a re-analysis of the deposited data

How the results depend on the processing

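Over 17 tested results and 193 alternatives, 176 kept direction and side of the threshold, 6 lost a call and 11 changed sign, and no call was gained. With the tree as a replicate block the calls held, with As_20592 at 3.92 (stem minus leaf), 2.22 (flower minus leaf) and -1.70 (flower minus stem, adjusted p = 0.0266) and As_44068 at 1.72, 2.13 and 0.41, and no other call changed. Scaled by 4 housekeeping transcripts, of which UBC11 (0.71), UBP12 (-0.81) and UBQ6 (0.91) were themselves called in flower minus stem, As_44068 was at -0.18 in flower minus stem, where the median of all transcripts moved from -0.09 to -0.62. The medians moved to 0.32 in stem minus leaf, -0.25 in flower minus leaf and 0.14 in the stem site contrast. Calls above 0 then made up 71.4% (55.3% with TMM), 42.2% (54.8%) and 21.9% (51.3%) of all calls in stem minus leaf, flower minus leaf and flower minus stem.

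With a pseudocount of 5 the ratio in flower minus leaf was 0.30, because small counts of As_20592 weigh less. Leaving out 1 tree, the ratio ranged from -0.48 to 0.30 in flower minus leaf, from -1.35 to 1.10 between sites in stems and from -0.86 to 0.047 between sites in flowers. As_20592 then ranged from -2.28 to 0.47 between sites in stems, from -1.17 to 2.07 in the difference of site contrasts, from 1.85 to 2.35 in flower minus leaf and from -2.63 to -0.97 in flower minus stem, where the call was lost without Eq6, St1 or St4. Without the stem library of Eq6 it was -1.02. Between sites in stems 78 transcripts were called, 571 by edgeR's exact test, 612 by DESeq2 and 0 to 87 without 1 tree. Depth limits As_20592 in subtropical leaves, at 5 to 13 counts.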
